A study of Mus musculus with 31 samples.

Results

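Chemokines and their receptors are described here in newborn mouse pancreas, in cells sorted by a mesenchymal label. Members were chosen by symbol: every row of the deposited tables named as a CC, CXC, CX3C or XC chemokine (Ccl, Cxcl, Cx3cl1, Xcl1) or as one of their receptors (Ccr, Cxcr, Cx3cr1, Xcr1). This gave 62 of 38283 rows, which carry 58 symbols, with 43 rows for ligands and 19 for receptors. All mice were C57BL/6 at postnatal day 2, and all of them, controls included, carried Nkx3.2-Cre, a Cre recombinase driven by a gene of the gut and pancreatic mesenchyme. The pancreata were dissociated with trypsin and sorted by fluorescence into YFP+ cells, called mesenchymal, and YFP- cells, called non-mesenchymal. In the Igf2 model the controls were Igf2+/+; Nkx3.2Cre/+ and the mutants Igf2+/fl; Nkx3.2Cre/+. In the H19DMD model the controls were H19DMD+/+; Nkx3.2+/Cre and the mutants H19DMDfl/+; Nkx3.2+/Cre. H19DMD is the imprinting control region between Igf2 and H19, and the series describes the second model as overexpression of Igf2. Values of 21 of 31 samples were analysed. For the Igf2 model these were 4 controls and 3 mutants, all of non-mesenchymal cells. For the H19DMD model they were 3 controls and 4 mutants in each fraction. Mesenchymal cells of the Igf2 model were not analysed here. The labels do not say whether the libraries came from separate animals or whether animals were pooled, so p-values measure the spread between these libraries.

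Chemokines are small secreted proteins that steer the movement of cells carrying the matching G protein-coupled receptor. Inflammatory members, such as the neutrophil-attracting Cxcl1 and Cxcl2 or the monocyte-attracting Ccl2, are made on demand, whereas homeostatic members, such as Cxcl12, Ccl19, Ccl21a and Cxcl13, are made steadily by stromal cells of bone marrow and lymphoid organs. Most receptors are carried by leukocytes, while the atypical receptor Cxcr7, now named Ackr3, takes up Cxcl12 without G protein signalling and is known from stromal and endothelial cells.

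Values are FPKM, that is fragments scaled to transcript length and to the mapped fragments of the library, so levels of different genes can be compared per length. Of the 62 rows, 23 had a mean of at least 10 FPKM in at least 1 of the 6 groups, 23 reached 1 to 10 FPKM, 9 stayed below 1 FPKM and 7 were listed at 0 in every library. The first set held 18 ligands and 5 receptors. Ligands led the order: Cxcl1 had the highest group mean at 289 ± 61.2 FPKM (SD, n = 3), ahead of Cxcl10, Ccl2 and Ccl3. The receptor with the highest group mean was Cxcr4, at 32.9 ± 24.4 FPKM (SD, n = 3) in Igf2-mutant non-mesenchymal cells. In single libraries, 61.0 FPKM of Cxcr4 and 62.4 FPKM of Ccr7 were reached, both in Igf2-mutant library 2. Means of this kind hide overlapping libraries, so values by library are given below for the members the results turn on and ranges for the others.

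The sort was checked on marker genes in the H19DMD model, the model with both fractions. All 9 mesenchymal markers tested, among them Col1a1 and Pdgfra, were called higher in YFP+ cells in controls and in mutants, although the lineage genes Nkx3-2 and Barx1 were low, with Nkx3-2 at 0 to 1.99 FPKM in YFP+ cells and listed at 0 in every YFP- library. Igf2 was at 6162 to 7923 FPKM in mutant and 3648 to 4024 FPKM in control mesenchymal cells, and H19 at 565 to 835 against 2437 to 2454 FPKM. Leukocyte markers (Ptprc, Laptm5, Coro1a, Tyrobp, Fcer1g, Cd52) summed to 3.08 to 6.42 FPKM in mesenchymal and 252 to 548 FPKM in non-mesenchymal libraries, and acinar markers to 546 to 1712 and 37444 to 101090.0 FPKM. Mesothelial markers summed to 83.4 to 264 FPKM in mesenchymal and 1.18 to 7.91 FPKM in non-mesenchymal libraries, and endothelial markers to 72.0 to 121 and 16.8 to 41.5 FPKM. YFP+ cells therefore held mesothelial and endothelial RNA beside mesenchymal RNA, and YFP- cells held leukocyte RNA. In bulk samples, fewer cells of a type and less RNA per cell cannot be told apart.

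The fractions carried different chemokines. In controls, 36 members passed the filter of a mean of at least 1 FPKM and were tested with limma. At an adjusted p under 0.05 over all genes, 8 were higher and 16 lower in mesenchymal than in non-mesenchymal cells. With 3 libraries a side an exact permutation test of a single gene cannot go below p = 0.1, so these calls rest on limma's spread shared across genes. Over all 16732 genes tested, 12.4% were called higher and 10.3% lower, 22.6% in all. The median log2 difference was -1.18 over the members and 0.08 over all genes. Ligands were called on both sides, while every conventional receptor that was called was lower in mesenchymal cells: 4 of 6 CC receptors, 3 of 4 CXC receptors and Cx3cr1. The 1 receptor called higher was the atypical Cxcr7. In H19DMD mutants 33 members were tested, with 7 called higher and 14 lower, where 13.5% of all genes were called higher and 15.1% lower, 28.6% in all. The median log2 difference there was -0.88 over the members and -0.03 over all genes.

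**Figure D1:**
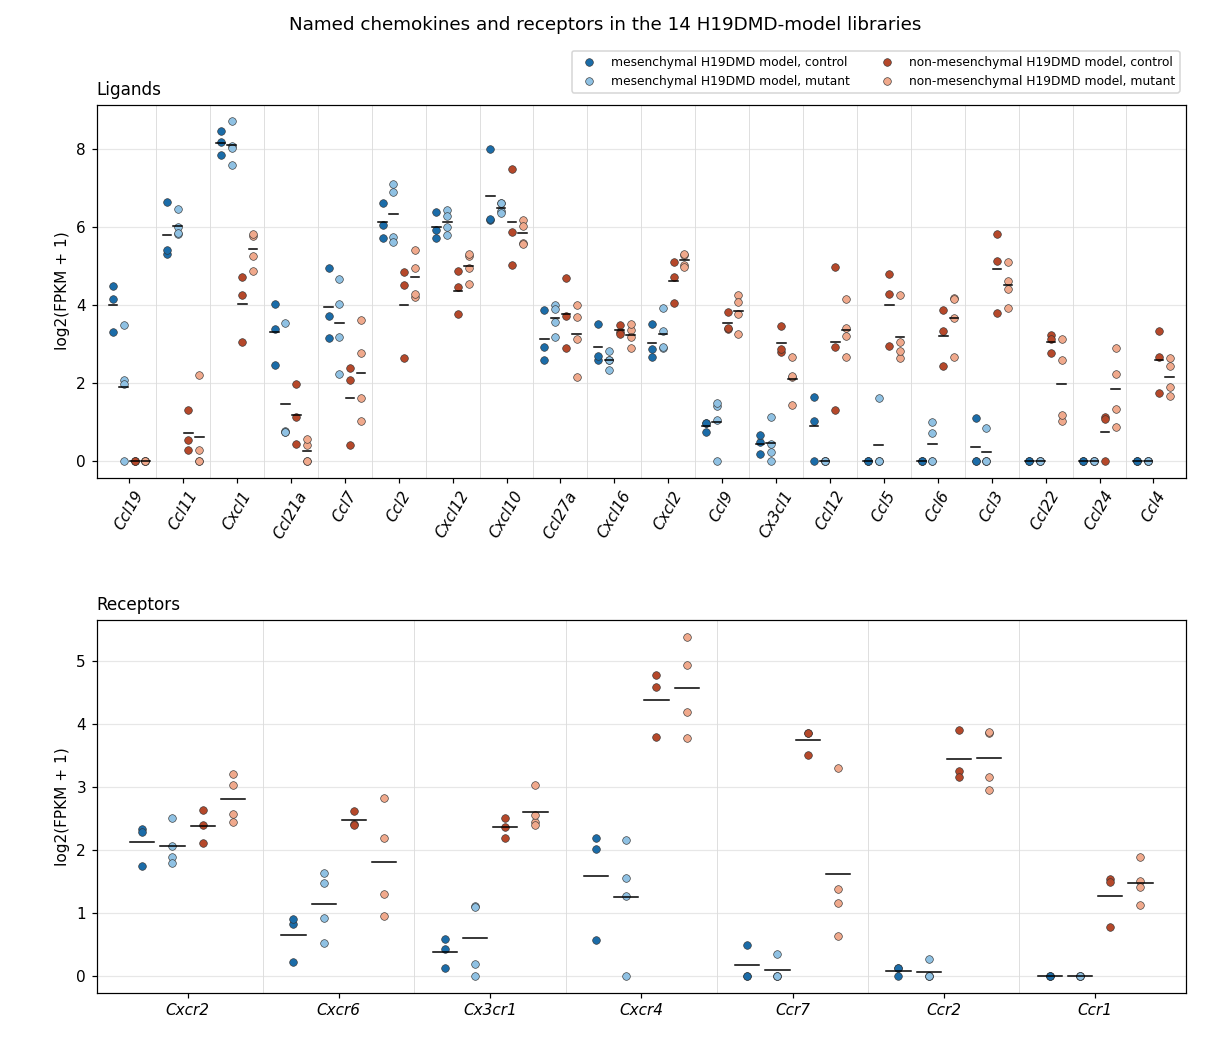
Levels of the named ligands (upper panel) and receptors (lower panel, with 1 left out) as log2(FPKM + 1) in the H19DMD-model libraries; each point is a library, black bars are group means, and genes run from those highest in mesenchymal to those highest in non-mesenchymal cells. Cxcl1 and Ccl11 stand far apart on the mesenchymal side, Ccl3, Ccl4 and Ccr2 on the other, and the named receptors have their higher means in non-mesenchymal cells.

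Neutrophil-attracting CXC ligands split between the fractions. Cxcl1 measured 229, 351 and 285 FPKM in the 3 mesenchymal control libraries and 7.22, 25.4 and 18.1 FPKM in the non-mesenchymal ones. In mutants it measured 414, 191, 268 and 258 FPKM in mesenchymal and 53.2, 36.8, 28.2 and 55.6 FPKM in non-mesenchymal cells. Every mesenchymal library was above every non-mesenchymal one, 17.1-fold by the means in controls and 6.51-fold in mutants. The log2 differences were 4.15 ± 0.46 (SE, limma adjusted p = 0.00172) and 2.67 ± 0.30 (SE, adjusted p = 0.00027). Cxcl5, another ligand of Cxcr2, went the same way at a lower level: it was at 2.94 to 9.45 FPKM in mesenchymal libraries, listed at 0 in all 3 non-mesenchymal controls and at no more than 0.378 FPKM in the mutant ones (adjusted p = 0.00423 in controls and 0.000443 in mutants).

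Cxcl2 was the reverse of its neighbour. It measured 5.32, 10.4 and 6.24 FPKM in mesenchymal and 15.5, 33.1 and 25.1 FPKM in non-mesenchymal controls. In mutants the values were 8.94, 6.44, 14 and 6.51 FPKM and 31.1, 30.2, 38 and 38.2 FPKM. Non-mesenchymal means were 3.36-fold and 3.84-fold higher (adjusted p = 0.0239 and 0.000712), with no overlap between fractions. The call in controls was lost without control library 1 or 3 of the mesenchymal cells (adjusted p = 0.0756 and 0.0778) or library 2 or 3 of the non-mesenchymal cells (0.0737 and 0.0768). Cxcr2, the receptor that neutrophils use for these ligands, was at 2.36 to 4.72 FPKM in mesenchymal and 3.33 to 8.19 FPKM in non-mesenchymal libraries and was not called in controls or in mutants (adjusted p = 0.538 and 0.0588), although it was called in mutants without mesenchymal library 4 (adjusted p = 0.0351).

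The 2 genes lie side by side on the plus strand of chromosome 5 in GRCm38, Cxcl1 at 90891241 to 90893115 and Cxcl2 at 90903871 to 90905938 (GENCODE M21). Their promoters are shown because they share a motif although the genes were high in opposite fractions. The stretches run from 150 to 11 bases before the RefSeq start (GRCm38.p6), Cxcl1 at chr5:90891095-90891234 and Cxcl2 at chr5:90903749-90903888, both on the plus strand, with matches to the kappaB letters GGGNNTTTCC on either strand in capitals.
Cxcl1: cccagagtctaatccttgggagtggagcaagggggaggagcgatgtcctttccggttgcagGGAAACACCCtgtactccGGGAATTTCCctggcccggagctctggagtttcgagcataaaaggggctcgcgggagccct
Cxcl2: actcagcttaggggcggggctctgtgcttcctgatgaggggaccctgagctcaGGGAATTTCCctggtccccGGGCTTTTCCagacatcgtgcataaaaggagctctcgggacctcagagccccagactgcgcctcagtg
Each stretch holds 2 matches, of which GGGAATTTCC is present in both, ending 62 bases before the RefSeq start in Cxcl1 and 88 bases before it in Cxcl2. These distances depend on the annotation, since the GENCODE start of Cxcl2 at 90903871 lies within the stretch shown. The other capitals are GGAAACACCC in Cxcl1, which matches on the opposite strand, and GGGCTTTTCC in Cxcl2. Of the 32851 RefSeq promoter windows of 300 bases, 1.63% hold such a match. Promoter windows were found for 42 of the 58 member symbols, and 6 of these hold a match, the others being Cxcl3, Ccl9, Ccl20 and Ccr3. A match describes letters only.

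Of the CC ligands that attract monocytes, macrophages and eosinophils, Ccl11, or eotaxin, showed the largest log2 difference of the members tested in controls. Ccl11 measured 38.5, 98.6 and 41.1 FPKM in mesenchymal and 1.47, 0.450 and 0.213 FPKM in non-mesenchymal controls, 83.7-fold by the means (log2 difference 5.07 ± 0.46, SE, adjusted p = 0.000861). The fold of the Ccl11 means was 179 without non-mesenchymal control 1. In mutants it measured 62.1, 54.9, 86.1 and 56.0 FPKM in mesenchymal and 0.214, 0, 0 and 3.56 FPKM in non-mesenchymal cells. The lowest mesenchymal library was above the highest non-mesenchymal one in both genotypes. Ccl2, the main ligand of Ccr2, measured 65.1, 96.6 and 51.7 FPKM in mesenchymal and 5.18, 21.9 and 27.8 FPKM in non-mesenchymal controls, which was not called (adjusted p = 0.0583, and 0.0376 without non-mesenchymal control 1). In mutants it measured 136, 52.5, 118 and 47.8 FPKM in mesenchymal and 17.3, 18.4, 29.9 and 41.6 FPKM in non-mesenchymal cells and was called (adjusted p = 0.0227). The fractions did not overlap for Ccl2 in either genotype. The call in mutants was lost without library 1 or 3 of the mesenchymal mutants (adjusted p = 0.0503 and 0.0588) or library 1 or 2 of the non-mesenchymal mutants (0.0621 and 0.0626). Ccl7, which shares Ccr2, had mesenchymal values of 12.1, 29.5 and 7.90 FPKM and non-mesenchymal values of 0.321, 3.18 and 4.16 FPKM in controls. In mutants Ccl7 measured 15.2, 3.69, 24.3 and 7.99 FPKM in mesenchymal and 2.07, 1.01, 5.74 and 11.2 FPKM in non-mesenchymal cells, and it was called in neither genotype (adjusted p = 0.0593 and 0.212). In controls Ccl7 was called after rescaling to the sum over long genes (adjusted p = 0.0259) and with 14 libraries pooled (0.0174). The same held for Ccl2 in controls (0.0170 and 0.00130).

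The macrophage inflammatory ligands were on the other side. Ccl3 measured 12.7, 34.0 and 55.5 FPKM in non-mesenchymal controls and 23.5, 14, 20.1 and 33.1 FPKM in non-mesenchymal mutants. In mesenchymal cells it was listed at 0 in 5 of 7 libraries and was at most 1.12 FPKM (log2 difference -4.55 ± 0.60 in controls, SE, adjusted p = 0.00342). Every non-mesenchymal library was above every mesenchymal one. Ccl4 was at 2.15 to 9.01 FPKM in non-mesenchymal libraries and listed at 0 in every mesenchymal one. Ccl5, a ligand of Ccr1, was at 5.18 to 26.5 FPKM against 0 in 6 of 7 mesenchymal libraries. Ccl6 was at 4.41 to 17.0 FPKM and Ccl9 at 8.43 to 18.1 FPKM in non-mesenchymal libraries, against at most 1.01 and 1.80 FPKM in mesenchymal ones. These 5 genes were called lower in mesenchymal cells in both genotypes, with adjusted p from 2.81e-05 to 0.00949. Macrophage markers summed to 16.9 to 69.9 FPKM in mesenchymal and 158 to 551 FPKM in non-mesenchymal libraries. Cd68 alone was at 12.9 to 64.5 FPKM in mesenchymal and 16.1 to 59.6 FPKM in non-mesenchymal libraries, while the other 9 markers summed to 1.89 to 9.24 and 142 to 491 FPKM. The part of macrophage RNA in these differences was not tested.

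Members within 200 kb of each other form 11 gene clusters. Over both genotypes, the called members of 5 clusters were all lower in mesenchymal cells, those of 2 were all higher, 2 held calls in both directions and 2 held no call. The clusters of Ccl24, Cx3cr1 and Cxcl10 held only that called member, so their direction could not be mixed. Neighbouring genes in general were not examined, so these counts do not show a shared direction within clusters. On chromosome 11, the 138.9 kb from 83525778 to 83664683 hold Ccl5, Ccl9, Ccl6, Ccl3 and Ccl4 in this order, and all 5 were called lower in mesenchymal cells in both genotypes. In the cluster from 82035571 to 82305690, also on chromosome 11, Ccl11 was called higher in mesenchymal cells in both genotypes, while its neighbour Ccl12 was called lower in mutants and not called in controls. Ccl12, a mouse ligand of Ccr2, measured 1.01, 2.13 and 0 FPKM in mesenchymal and 1.44, 30.5 and 6.49 FPKM in non-mesenchymal controls, which overlapped (adjusted p = 0.177). In mutants Ccl12 was listed at 0 in all 4 mesenchymal libraries and measured 5.28, 8.22, 9.61 and 16.8 FPKM in the non-mesenchymal ones (adjusted p = 0.000118). Ccl24, a further eotaxin, was listed at 0 in all 7 mesenchymal libraries and was called in mutants, at 0.824, 1.5, 3.70 and 6.40 FPKM in non-mesenchymal cells (adjusted p = 0.0184, and 0.0531 without library 3 of them). In controls Ccl24 lay below the filter.

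Cxcl12 was higher in mesenchymal cells and its signalling receptor Cxcr4 in non-mesenchymal cells. Cxcl12, the ligand that retains blood cell precursors in marrow, measured 59.6, 81.5 and 51.6 FPKM in mesenchymal and 12.6, 21.1 and 28.1 FPKM in non-mesenchymal controls. In mutants it measured 85.0, 76.0, 62.3 and 54.3 FPKM in mesenchymal and 22.0, 37.0, 29.6 and 38.4 FPKM in non-mesenchymal cells. Mesenchymal means were 3.12-fold and 2.19-fold higher (adjusted p = 0.0177 and 0.00667), without overlap. The call in controls was lost without library 1 or 2 of the mesenchymal controls (adjusted p = 0.0523 and 0.0582) or library 2 of the non-mesenchymal controls (0.0548). Cxcr4 measured 0.484, 3.56 and 3.04 FPKM in mesenchymal and 12.8, 26.5 and 23.2 FPKM in non-mesenchymal controls. In mutants Cxcr4 measured 3.47, 1.94, 1.40 and 0 FPKM in mesenchymal and 41.0, 12.7, 17.3 and 29.7 FPKM in non-mesenchymal cells. Non-mesenchymal Cxcr4 was 8.83-fold and 14.8-fold higher (adjusted p = 0.0119 and 0.00181), the second 22.6-fold without mesenchymal mutant 1. The atypical receptor Cxcr7, which fell just short of the level that set the named members and was chosen after its values were seen, measured 8.08, 6.08 and 15.6 FPKM in mesenchymal and 1.02, 1.73 and 0.954 FPKM in non-mesenchymal controls. In mutants its values were 10.1, 17.9, 7.13 and 3.59 FPKM in mesenchymal and 3.45, 1.15, 0.915 and 0.351 FPKM in non-mesenchymal cells. The fold differences of the Cxcr7 means were 8.04 and 6.61 (adjusted p = 0.00863 and 0.0163), the second 12.1 without non-mesenchymal mutant 1, so the ligand and its atypical receptor were high in the same fraction.

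Most leukocyte receptors were at or near 0 in mesenchymal libraries. Ccr2, the receptor of inflammatory monocytes, was at 6.73 to 14 FPKM in non-mesenchymal libraries and at no more than 0.206 FPKM in mesenchymal libraries (adjusted p = 0.000676 in controls and 4.61e-05 in mutants). Cx3cr1, carried by resident macrophages, was at 3.57 to 7.16 FPKM in non-mesenchymal and 0 to 1.15 FPKM in mesenchymal libraries (adjusted p = 0.00381 and 0.00261). Ccr1, a receptor of Ccl3 and Ccl5, was at 0.709 to 2.69 FPKM in non-mesenchymal libraries against 0 in all mesenchymal ones but lay below the filter in both genotypes. Ptprc, the pan-leukocyte gene, was at no more than 0.271 FPKM in any mesenchymal library.

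The membrane-bound ligands Cx3cl1 and Cxcl16 and the dendritic-cell ligand Ccl22 were also on the non-mesenchymal side. Cx3cl1, which is known from endothelium and epithelium, measured 9.91, 5.87 and 6.22 FPKM in non-mesenchymal controls against 0.389, 0.575 and 0.131 FPKM in mesenchymal ones (adjusted p = 0.00188). Ccl22, a ligand of Ccr4, measured 8.37, 5.81 and 7.74 FPKM in non-mesenchymal controls and 7.74, 4.95, 1.04 and 1.26 FPKM in non-mesenchymal mutants, and was listed at 0 in all 7 mesenchymal libraries (adjusted p = 0.000595 and 0.0197, the second 0.0566 without non-mesenchymal mutant 2). Cxcl16, the ligand of Cxcr6, differed little: it measured 6.07, 4.97, 4.99 and 3.99 FPKM in mesenchymal and 9.22, 7.99, 6.46 and 10.3 FPKM in non-mesenchymal mutants (adjusted p = 0.0366). That call was lost in 9 of 16 alternative analyses, 6 of which left out 1 library (all but mesenchymal mutant 1 and non-mesenchymal mutant 3), with adjusted p from 0.0138 to 0.0993, and Cxcl16 was not called in controls, at 4.96, 5.42 and 10.4 FPKM in mesenchymal and 10.1, 8.87 and 8.58 FPKM in non-mesenchymal cells (adjusted p = 0.373).

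Most of the members called in controls were called again in mutants, and the genotypes share no libraries. The share of all genes called in both is not given here, so the members are not set apart from other genes. Of the 8 members called higher in mesenchymal control cells, 5 were also called in mutants (62.5% of the 8 and 71.4% of the 7 called in mutants): Cxcl1, Cxcl5, Cxcl12, Ccl11 and Cxcr7. Of the 16 called lower in controls, 11 were called in mutants (68.8% of the 16 and 78.6% of the 14). Ccl19, Ccl21a and Cxcl13 on the mesenchymal side and Ccr6, Ccr7, Ccr9, Cxcr5 and Cxcr6 on the other were called in controls alone. In mutants Ccr7 and Ccr9 missed the call (limma adjusted p = 0.0777 and 0.0694) but passed it with 14 libraries pooled (0.000493 and 0.000465). Ccr7 also passed it there with a pseudocount of 0.1 (0.0230) or without non-mesenchymal mutant 3 (0.04998). Ccl2 and Cxcl10 (higher) and Ccl12, Ccl24 and Cxcl16 (lower) were called in mutants alone. A call in 1 genotype does not show that the genotypes differ, and the test of that difference is given with the mutant comparisons.

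**Figure D2:**
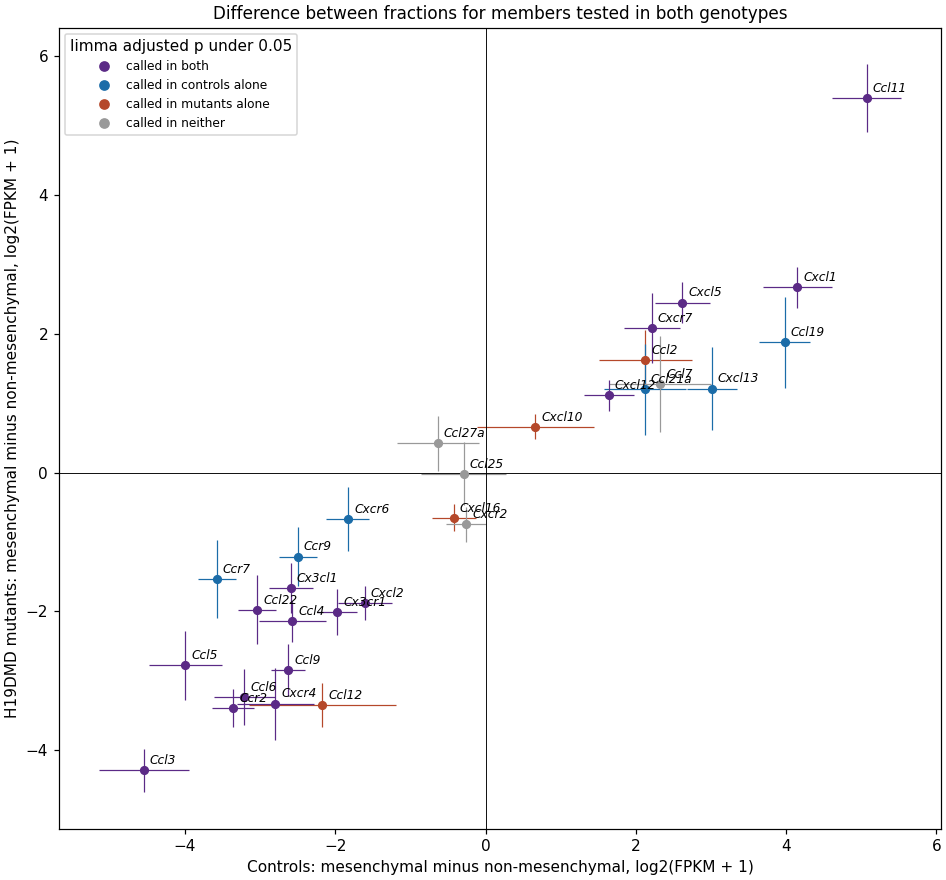
Difference between fractions (mesenchymal minus non-mesenchymal, log2(FPKM + 1)) in controls on the x axis and H19DMD mutants on the y axis for the members tested in both, with 1 left out; points are limma estimates, bars are SE, and colour marks the genotype in which a member was called. Cxcl1, Ccl11 and Cxcr7 lie in the upper right and Ccl3, Ccr2 and Cxcr4 in the lower left, whereas Ccl19 and Ccr7 lie closer to 0 in mutants than in controls.

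Of the members called in controls alone, Ccl19, Ccl21a, Cxcl13, Ccr7 and Cxcr5 are known to organise lymphoid tissue. Ccr6, Ccr9 and Cxcr6 were the others, and this grouping by role was not tested. Ccl19 and Ccl21a are the ligands of Ccr7, and Cxcl13 is the ligand of Cxcr5. These receptors guide T cells and dendritic cells, and B cells, respectively. Ccl19 measured 21.2, 16.8 and 8.94 FPKM in mesenchymal controls and 10.1, 3.17, 2.93 and 0 FPKM in mesenchymal mutants, and was listed at 0 in all 7 non-mesenchymal libraries. Ccl21a measured 15.2, 9.46 and 4.51 FPKM in mesenchymal controls and 10.5, 0.708, 0.666 and 0.680 FPKM in mesenchymal mutants. Cxcl13, chosen after its values were seen like Cxcr5, measured 8.89, 9.05 and 4.27 FPKM in mesenchymal controls and 6.75, 1.02, 0.83 and 0 FPKM in mesenchymal mutants. Mutant library 1 lay within the control range for all 3 ligands, and mutant libraries 2, 3 and 4 were below every control. The groups thus overlapped for Ccl19, Ccl21a and Cxcl13. Ccl19 and Cxcl13 had log2 differences of -2.10 ± 0.77 and -1.80 ± 0.69 between mutants and controls (SE, unadjusted p = 0.029 and 0.034, limma adjusted p = 0.927 for both), and neither was called. The fraction call of Ccl21a in controls (adjusted p = 0.0399) was lost in 7 of 14 alternative analyses, with adjusted p from 0.0132 to 0.127. Among these were the fits without library 1 or 2 of either fraction. In mutants Ccl19 missed the fraction call (adjusted p = 0.0668) but passed it without mesenchymal mutant 4 (0.00486).

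Lymphatic endothelial markers (Prox1, Lyve1, Flt4, Pdpn) also set mutant library 1 apart from the other 3 mutants in mesenchymal cells, as Ccl19, Ccl21a and Cxcl13 did. They summed to 30.6, 32.9 and 28.0 FPKM in controls and 33.9, 20.3, 15.1 and 24.2 FPKM in mutants, with mutant library 1 above every control and libraries 2, 3 and 4 below. Lyve1, a hyaluronan receptor of lymphatic vessels, measured 3.51, 2.27 and 2.22 FPKM in mesenchymal controls and 8.07, 1.98, 2.09 and 0.760 FPKM in mesenchymal mutants. Prox1, a transcription factor of lymphatic endothelium and also of pancreatic epithelium, measured 2.18, 1.53 and 2.25 FPKM in mesenchymal controls and 4.45, 1.47, 0.999 and 0.987 FPKM in mesenchymal mutants. It was at 63.8 to 98.9 FPKM in non-mesenchymal libraries, and Prox1 and Lyve1 were both called lower in mesenchymal cells in both genotypes. In mesenchymal cells both had mutant library 1 above every control and the other 3 mutants below, whereas Flt4 overlapped in library 2 and Pdpn, which other stromal cells also carry, was below every control in all 4 mutants. Between mesenchymal mutants and controls 0 of the 4 were called by limma, and 0 passed an unadjusted p under 0.05. Summed mesothelial markers were at 264, 128.5 and 120.2 FPKM in the mesenchymal controls and 106, 131, 83.4 and 102 FPKM in the mutants, and did not set library 1 apart. The sum of the general endothelial markers (Pecam1, Cdh5, Kdr, Tek, Esam, Emcn) was likewise highest in mutant library 1, at 83.5, 93.0 and 82.7 FPKM in mesenchymal controls and 121, 109, 79.6 and 72.0 FPKM in mesenchymal mutants, although Tek was lowest there. Among them Cdh5, a junction protein of all endothelium, measured 8.04, 11.3 and 12.8 FPKM in mesenchymal controls and 26.8, 15.5, 10.7 and 4.84 FPKM in mesenchymal mutants. Acinar markers, which are carried by the non-mesenchymal fraction, summed to 602, 1352 and 700.5 FPKM in mesenchymal controls and 1712, 546, 1049 and 631 FPKM in mesenchymal mutants, again with library 1 the highest. Endocrine markers, also of that fraction, did not have library 1 highest. They summed to 121, 204 and 52.4 FPKM in mesenchymal controls and 90.9, 117, 46.1 and 30.5 FPKM in mesenchymal mutants. The part of endothelial, mesothelial or non-mesenchymal RNA in the ligand values was not tested.

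In the non-mesenchymal fraction, mutant library 1 was the highest of the mutants for Ccr7 and Cxcr5, the receptors of these 3 ligands, although the labels do not tie its number to the same mice. Ccr7 measured 13.5, 13.5 and 10.4 FPKM in non-mesenchymal controls and 8.88, 1.23, 0.551 and 1.61 FPKM in mutants, with no overlap. Cxcr5 measured 3.56, 4.60 and 2.10 FPKM in controls and 3.57, 1.61, 0.345 and 0.504 FPKM in mutants, with overlap. The T cell gene Cd3e measured 36.6, 22.1 and 31.0 FPKM in non-mesenchymal controls and 17.1, 3.78, 3.56 and 3.36 FPKM in mutants, and the B cell gene Cd79a measured 14.6, 19.6 and 14.1 FPKM in controls and 9.08, 4.06, 3.60 and 7.77 FPKM in mutants. Summed T cell markers (Cd3d, Cd3e, Cd3g) were at 35.1 to 54.1 FPKM in controls, 39.3 FPKM in mutant library 1 and 3.86 to 10.7 FPKM in mutant libraries 2, 3 and 4. The part of T and B cell RNA in the receptor values was not tested. In mesenchymal libraries Cd3e was listed at 0 throughout and the summed T cell markers were at 0 to 2.09 FPKM.

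**Figure D3:**
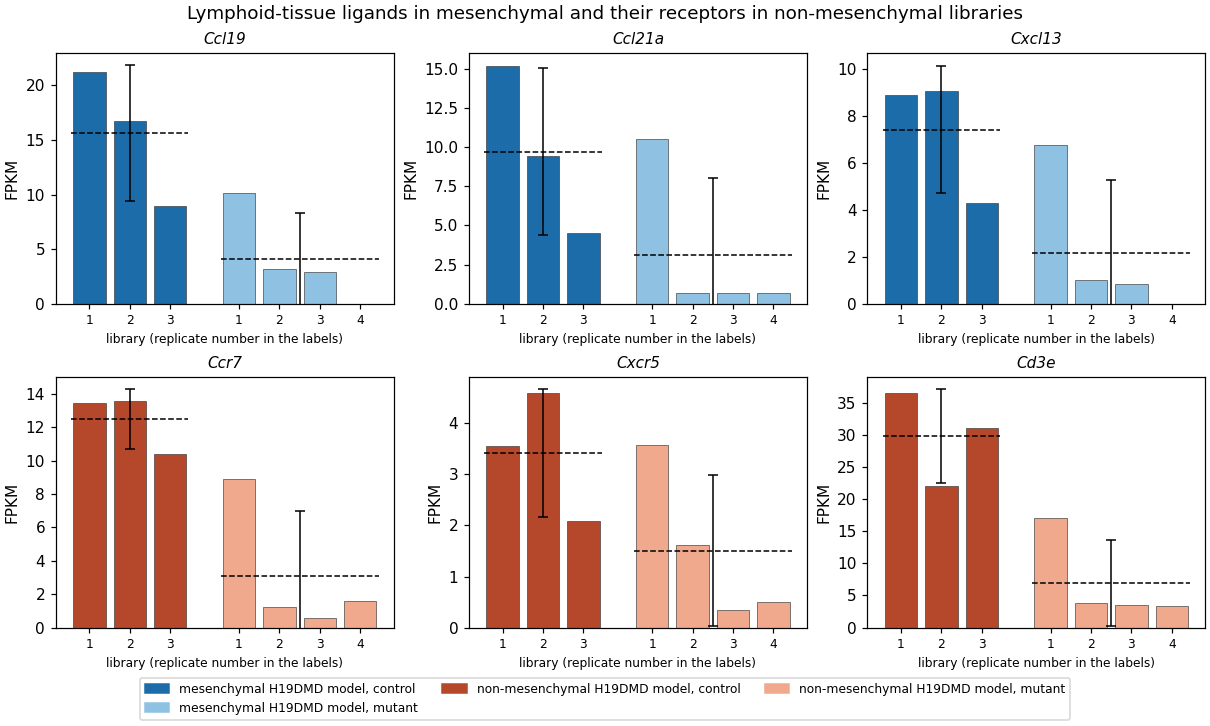
FPKM by library of the ligands Ccl19, Ccl21a and Cxcl13 in mesenchymal cells (upper row) and of the receptors Ccr7 and Cxcr5 and the T cell gene Cd3e in non-mesenchymal cells (lower row) of the H19DMD model; bars are libraries, dashed lines group means, and error bars SD, cut at 0. In each panel mutant library 1 is the highest of the 4 mutants.

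Of the interferon-induced ligands of Cxcr3, Cxcl10 was abundant in both fractions and Cxcl9 was high in 1 library of each. Cxcl9, chosen after its values were seen, measured 0.587, 21.1 and 0.485 FPKM in mesenchymal and 1.46, 11.2 and 0.589 FPKM in non-mesenchymal controls, and 0.145 to 1.38 FPKM over all 8 mutant libraries of the model. Cxcl10 measured 71.0, 252 and 71.8 FPKM in mesenchymal and 31.4, 177 and 57.1 FPKM in non-mesenchymal libraries of the same controls. Control 2 was thus the highest of the 3 controls in both fractions for both genes. In mutants Cxcl10 measured 95.9, 83.4, 97.2 and 80.2 FPKM in mesenchymal and 46.6, 70.8, 46.2 and 63.6 FPKM in non-mesenchymal cells, and was called higher in mesenchymal cells (log2 difference 0.66 ± 0.18, SE, adjusted p = 0.0261). This call was lost in 6 of 16 alternative analyses (adjusted p from 0.0117 to 0.164), among them the fits without mutant library 1 or 3 of either fraction. Cxcl11 stayed at 0 to 1.04 FPKM.

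Other interferon-induced genes, listed after these values were seen, were in large part highest in the control libraries numbered 2 as well. Gbp2, a guanylate-binding protein, measured 14.3, 36.3 and 12 FPKM in mesenchymal and 1.53, 33.4 and 1.63 FPKM in non-mesenchymal controls. Iigp1, an immunity-related GTPase, measured 5.97, 45.7 and 3.39 FPKM in mesenchymal and 0.529, 26.9 and 0.380 FPKM in non-mesenchymal controls. Of 10 such genes, control 2 was the highest of the 3 controls for 10 in mesenchymal and 9 in non-mesenchymal cells. How often control 2 was the highest over all genes is not given here, so these counts have no background. The labels do not say whether the libraries numbered 2 came from the same mice. The Cxcl10 promoter is shown because it carries the letters of an interferon-stimulated response element. The stretch lies on the minus strand at chr5:92348900-92349139 (RefSeq, GRCm38.p6), from 250 to 11 bases before the start, with the match to GAAANNGAAA in capitals.
Cxcl10: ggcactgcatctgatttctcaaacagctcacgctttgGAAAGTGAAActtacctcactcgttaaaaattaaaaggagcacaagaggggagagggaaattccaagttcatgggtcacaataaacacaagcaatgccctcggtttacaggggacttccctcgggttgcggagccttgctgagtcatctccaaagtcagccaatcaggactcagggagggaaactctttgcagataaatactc
The match ends 204 bases before the start. Searched on both strands, these letters were found in 3.44% of all promoter windows and in 3 of the 42 member symbols with a window, the others being Ccl19 and Cxcl14. The Cxcl9 window held no match.

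**Figure D4:**
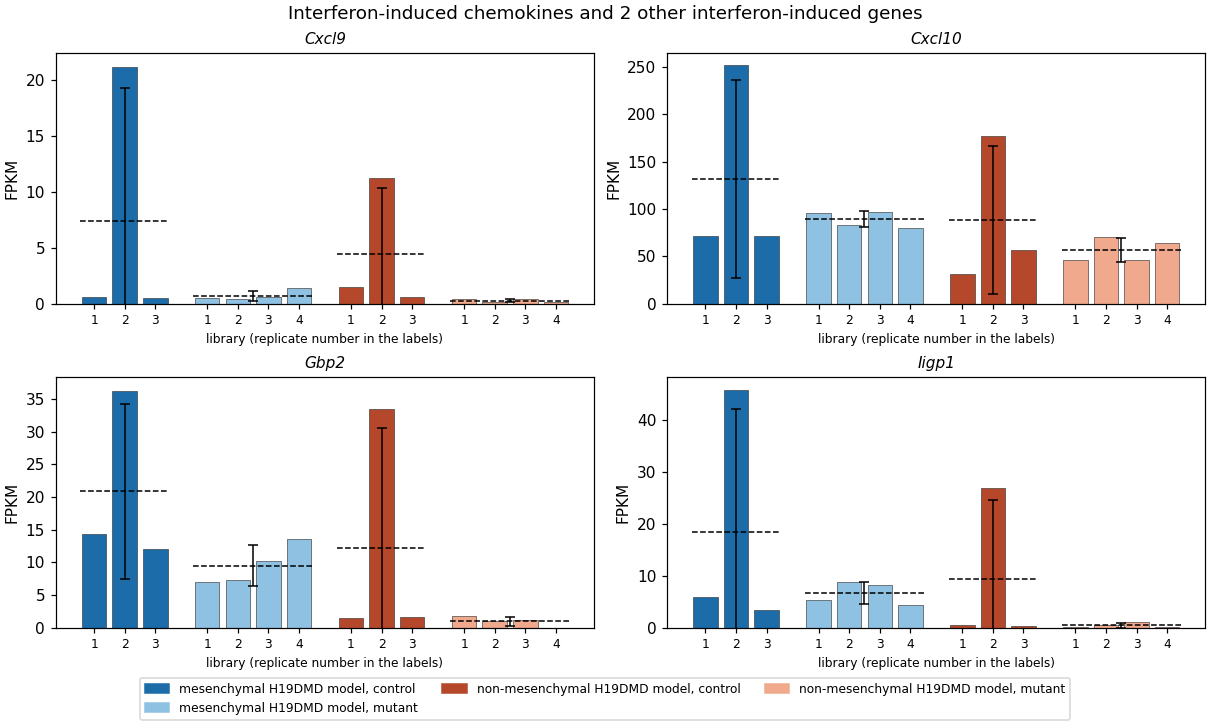
FPKM by library of the chemokines Cxcl9 and Cxcl10 and of the interferon-induced genes Gbp2 and Iigp1 in both fractions of the H19DMD model; bars are libraries, dashed lines group means, and error bars SD, cut at 0. Control library 2 is the highest bar of its group in both fractions in each panel.

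No member was called by limma between H19DMD mutants and controls in mesenchymal cells. There, 0 of 21 members tested passed an adjusted p under 0.05, where 0.0694% of all genes did, and 3 passed an unadjusted p under 0.05 (4.76% of all genes). Those 3 were Ccl19 and Cxcl13, lower in mutants, and Ccl25, a thymus and gut ligand that was higher in mutants at 8.24, 11.1, 2.65 and 11.6 FPKM, against 2.78, 2.67 and 1.09 FPKM in controls (log2 difference 1.46 ± 0.49, SE, adjusted p = 0.927). Library 3 of the mutants fell within the control range, so the groups overlapped for Ccl25. A second, lower row of Ccl25 measured 1.14, 0.709, 0.701 and 0.496 FPKM in mutants and 0.551, 0.822 and 0.557 FPKM in controls, with library 4 of the mutants below every control. No member had groups apart in this comparison, where 5.39% of all genes did. For the abundant mesenchymal ligands no difference was found between genotypes: Cxcl1 had means of 289 ± 61.2 FPKM (SD, n = 3) in controls and 283 ± 93.8 FPKM (SD, n = 4) in mutants, with a 95% interval of the log2 difference from -0.75 to 0.62. For Ccl11 the interval ran from -0.61 to 1.09 and for Cxcl12 from -0.43 to 0.66, which leaves room for differences of either sign.

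In the non-mesenchymal fraction of the H19DMD model, 0 of 35 members tested were called by limma (0.0677% of all genes) and 4 passed an unadjusted p under 0.05 (5.35% of all genes). Cxcl1 was higher in the mutants, 2.57-fold by the means, and every mutant library was above every control (log2 difference 1.42 ± 0.43, SE, limma adjusted p = 0.892, exact permutation p = 0.0286, two-sided, the smallest that 4 against 3 libraries allow). Its non-mesenchymal values of 53.2, 36.8, 28.2 and 55.6 FPKM in mutants and 7.22, 25.4 and 18.1 FPKM in controls stayed below every mesenchymal value. Summed neutrophil markers (S100a8, S100a9, Ly6g, Mpo, Elane, Ngp) were at 371 to 657 FPKM in these mutants and 87.1 to 236 FPKM in controls, also without overlap, and their part was not tested. Ccr7 was lower in mutants (log2 difference -2.12 ± 0.60, SE, adjusted p = 0.892). Without mutant library 1, the one with high lymphocyte markers, Ccr7 alone among the members was called, with a log2 difference of -2.68 and an adjusted p of 0.0441, while over its alternatives the adjusted p ran from 0.0441 to 0.972. Cx3cl1 was at 3.46, 5.27, 1.71 and 3.53 FPKM in mutants, below every control (log2 difference -0.92 ± 0.33, SE, adjusted p = 0.892). Ccr6, carried by B cells and T cell subsets, was at 3.49, 0.416, 0.183 and 0 against 4.47, 4.61 and 2.41 FPKM, with overlap. Of the members tested, 4 had groups that did not overlap, where 5.68% of all genes did: Cxcl1 with all mutants above all controls, and Ccr7, Cx3cl1 and Cxcl9 with all mutants below.

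Whether the effect of the H19DMD deletion differed between fractions was tested as an interaction over all 14 libraries. By limma, 0 of 36 members were called (0.0117% of all genes) and 6 passed an unadjusted p under 0.05 (6.35% of all genes): Cxcl1, Ccl19, Cxcl13, Ccr6, Ccr7 and Ccr9. Their log2 differences of differences, mesenchymal minus non-mesenchymal, were -1.48 ± 0.55 for Cxcl1, -2.10 ± 0.85 for Ccl19 and 2.05 ± 0.70 for Ccr7 (SE, limma adjusted p = 0.755 for each). The same test covers the change of the fraction difference between genotypes, so none of the members called in 1 genotype alone was shown to differ between genotypes.

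In the Igf2 model, only non-mesenchymal cells were analysed, sorted as lacking YFP. Igf2 was at 71.5 to 144 FPKM in these controls and 25.0 to 147 FPKM in the mutants, which does not check a deletion meant for the YFP+ cells. By limma, 0 of 36 members tested were called (0.0631% of all genes) and 4 passed an unadjusted p under 0.05 (5.28% of all genes): Ccl3, Ccl4, Ccl6 and Ccl22, all higher in mutants. Ccl3 measured 31.3, 42.0, 43.1 and 53.9 FPKM in the 4 controls and 95.6, 76.6 and 83.6 FPKM in the 3 mutants. Each mutant library was above each control, 2.00-fold by the means, with a log2 difference of 1.01 ± 0.21 (SE, unadjusted p = 0.00169, limma adjusted p = 0.638, exact permutation p = 0.0286, two-sided). Ccl6 measured 6.84, 6.22, 15.3 and 10.2 FPKM in controls and 19.4, 20.2 and 38.5 FPKM in mutants, again without overlap. Ccl22 measured 1.81, 0.244, 6.72 and 4.95 FPKM in controls and 11.5, 9.36 and 12.1 FPKM in mutants, also without overlap. Ccl4 measured 6.30, 7.24, 21.9 and 11.9 FPKM in controls and 13.9, 35.4 and 37.2 FPKM in mutants, with overlap in 1 mutant library. The fold differences of the means were 2.70, 3.20 and 2.43 for Ccl6, Ccl22 and Ccl4 (adjusted p = 0.919 for each).

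Groups were apart, higher in mutants, for 3 of the 36 members tested in the Igf2 model (Ccl3, Ccl6 and Ccl22), where 2.65% of all genes tested were, and for none lower, where 3.37% were. The median log2 difference was 0.44 over the members and -0.03 over all genes, and 28 of 36 members had a positive difference against 47.1% of all genes. Rescaling each library to the same sum over annotated genes of at least 200 bases, small RNA classes left out, moved the median of all genes to -0.28 and that of the members to 0.20. After this rescaling, 22 of 36 members had a positive difference against 25.3% of all genes. Ccl2 measured 105, 26.6 and 79.7 FPKM in mutants and 15.5, 15.9, 75.5 and 39.5 FPKM in controls, and Cxcl2 measured 88.6, 51.7 and 87.1 FPKM in mutants and 15.6, 26.5, 67.1 and 61.7 FPKM in controls, both overlapping. Leukocyte markers summed to 659 to 1209.5 FPKM in these mutants and 467 to 658 FPKM in controls, and acinar markers to 81691 to 94298 and 28160.2 to 40259.8 FPKM, neither with overlap. Macrophage markers summed to 549.8 to 1162 and 392 to 779.6 FPKM, with overlap. Their part in the ligand values was not tested.

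Library 2 of the Igf2 mutants stood apart in several lymphocyte genes, though not in all. Its Ccr7 was at 62.4 FPKM, against 7.77 and 2.86 FPKM in the other mutants and 1.85 to 22.7 FPKM in controls. Cxcr6, the receptor of Cxcl16 on T and natural killer cells, was at 14.8 FPKM there against 2.01 to 4.89 FPKM in controls, Cxcr4 at 61.0 against 17.0 to 29.8 FPKM, and Ccl5 at 44.5 against 6.30 to 14.1 FPKM. The same library had Cd3e at 84.8 FPKM, where the other 6 libraries of the model had 1.41 to 22.6 FPKM. Ccr7, Cxcr6, Cxcr4 and Ccl5 were therefore highest in the model in the library richest in T cell RNA, and its part was not tested. Of other receptors, Ccr8, Ccr9 and Cxcr5 were also highest there, whereas Ccr4, Ccr6 and Cxcr3 were higher in control 4. These last measured 6.58, 6.25 and 0.298 FPKM in mutant library 2 and 7.29, 7.53 and 3.02 FPKM in control 4.

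**Figure D5:**
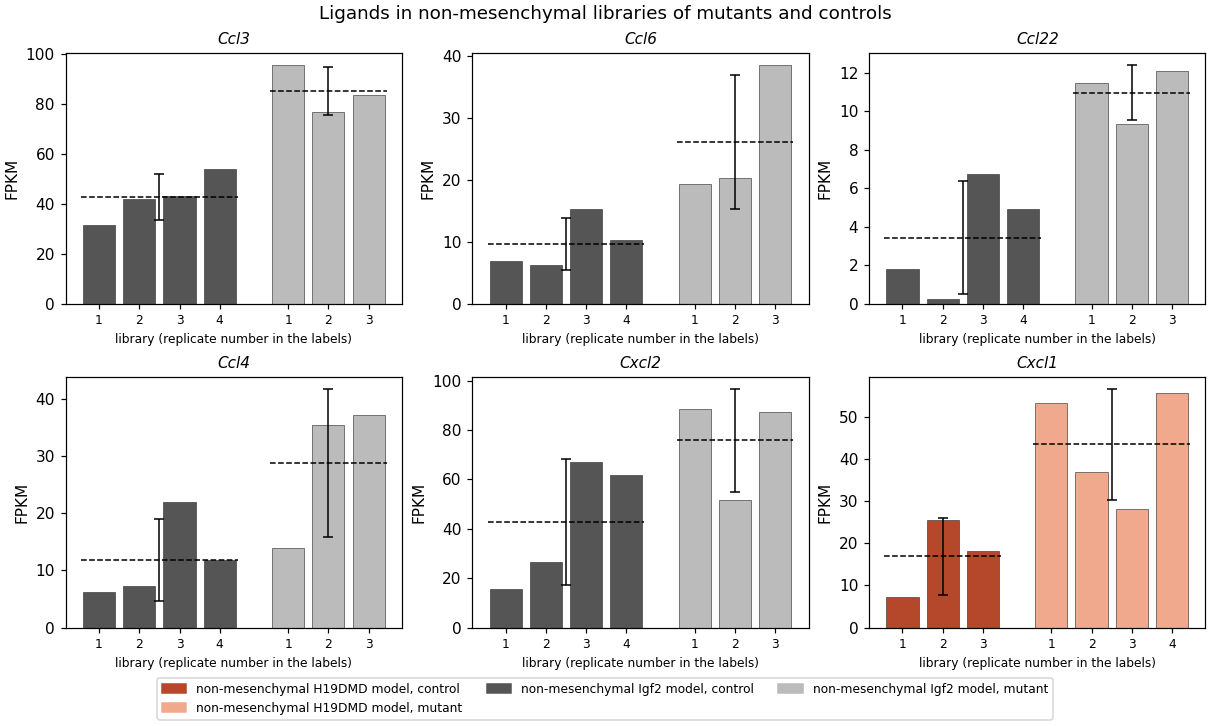
FPKM by library in non-mesenchymal cells of the ligands Ccl3, Ccl6, Ccl22, Ccl4 and Cxcl2 in the Igf2 model and of Cxcl1 in the H19DMD model; bars are libraries, dashed lines group means, and error bars SD. All mutant bars exceed all control bars for Ccl3, Ccl6, Ccl22 and Cxcl1, while those of Ccl4 and Cxcl2 overlap.

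Members that were high in non-mesenchymal cells of 1 model were also present in the other, although levels cannot be tested across tables that were normalised separately. Cxcl12 was at 18.4 to 51.5 FPKM in the Igf2 model and 12.6 to 38.4 FPKM in the H19DMD model. Ccl24 was at 2.40, 10.8, 9.34 and 9.43 FPKM in Igf2 controls and 5.60, 2.75 and 24.4 FPKM in Igf2 mutants, against 0 to 6.40 FPKM in the H19DMD model. In the Igf2 and then the H19DMD model, Ccl12 was at 6.65 to 59.0 and 1.44 to 30.5 FPKM, Cx3cr1 at 4.43 to 16.7 and 3.57 to 7.16 FPKM, and Ccr2 at 6.51 to 14.2 and 6.73 to 14 FPKM. Ccl27a, a skin-homing ligand, was at 3.31 to 24.5 FPKM over all 21 libraries and was called in no comparison.

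Beside the members, 32 other genes of the chemokine pathway were followed, from decoy receptors to the signalling chain inside the cell. In controls 29 were tested and 2 were called higher and 10 lower in mesenchymal cells, where 12.4% of all genes were called higher and 10.3% lower. In mutants 29 were tested, with 2 higher and 12 lower, where the shares over all genes were 13.5% and 15.1%. The 2 that were higher in both were Darc, the decoy receptor now named Ackr1, at 1.94 to 10.8 FPKM in mesenchymal and 0 to 0.789 FPKM in non-mesenchymal libraries, and Rgs16, a brake on G protein signalling, at 15.4 to 29.6 against 1.35 to 5.20 FPKM. Among those lower in both were Dock2, Rac2 and Vav1, which drive leukocyte migration downstream of the receptors, the platelet chemokine Pf4 at 0 to 2.52 against 16.1 to 116 FPKM, and the decoy receptor Ccrl2 at 0.510 to 2.09 against 4.55 to 16 FPKM. None was called in the mutant comparisons or the interaction. Dpp4, the protease that trims several chemokines, was at 33.0 to 65.5 FPKM in mesenchymal and 25.1 to 46.9 FPKM in non-mesenchymal libraries and was called in neither genotype.

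The remaining members were low. Listed at 0 in every library were 4 rows of Ccl21c, Ccl27b, Ccl8 and Cxcr1. Below 1 FPKM in every group mean were Ccl28, Cxcl14, Cxcl3, Ccr3, Ccr10, Cxcl11, Ccl21b, Cxcl17 and Cxcl15. Between 1 and 10 FPKM, and not described above, were Ccl1, Ccl17, Ccl20, Ccl26, Xcl1, Xcr1, Ccr4, Ccr8, Ccr9, Cxcr3 and a second row of Ccl25. The highest of these group means belonged to Ccr9 at 8.0 ± 6.97 FPKM (SD, n = 3). Ccr9, the receptor of Ccl25 on thymocytes, was called lower in mesenchymal cells in controls (adjusted p = 0.00129), as were Ccr6 (0.00441), Cxcr5 (0.0147) and Cxcr6 (0.0066). Ccr4, tested between fractions in controls alone, was not called (adjusted p = 0.112). Ccl1, tested there in mutants alone, was not called either (adjusted p = 0.117, and 0.0292 without non-mesenchymal mutant 1). Some values are uncertain as counted. Ccl21a, Ccl21b and Ccl21c, and likewise Ccl27a and Ccl27b, are near-identical copies whose reads cannot be told apart with certainty. Ccl19 and Ccl21a, Ccl2, Ccl6, Ccl25, Ccl27a, Cxcl10, Cxcl11, Cxcl16, Cxcr5 and Cxcr6 overlap an annotated gene on the opposite strand, and Ccr9 and Cx3cr1 overlap genes on both strands. Whether counting used the strand is not given in the sources used here.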

How the data were processed

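RNA of sorted YFP+ and YFP- cells was amplified from nanogram amounts and sequenced single-end, per the labels' protocols. FPKM values were made by the authors with TopHat2 2.0.8 and Cufflinks 2.2.1 on GRCm38, per the submitters' processing notes, and were deposited in 1 table per model. The roles of these tools, the annotation and the use of strand are not given in the sources used here. Read depth is unknown and no counting interval was computed; a value listed at 0 can be a failed estimate. The tables hold 8 further sample columns that were not used, and 10 of 31 samples were not analysed here.

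Comparisons were made within 1 table, with limma 3.58.1 (R 4.3.3) on log2(FPKM + 1) over every gene whose mean reached 1 FPKM in the libraries compared, with a variance trend and Benjamini-Hochberg adjustment over all genes tested; "called" means an adjusted p under 0.05. Fold changes on this scale understate those of low genes. Fold values of means were computed from FPKM. Single members were also tested by an exact permutation test over libraries, two-sided. The scripts were tested on simulated data. Named, with values by library or by range, were members with a group mean of at least 10 FPKM and a fixed set of receptors and ligands, 28 in all; 11 others were described after their values were seen. Of the named members 1, with 1 marker gene and the sum that holds it, is not reported here; the counts of members include it. Members and lists were chosen with earlier results of these data known. Gene positions came from GENCODE M21, and promoters from RefSeq. Alternatives were the pseudocount, scaling, filter, variance trend, replicate block, pooling of 14 libraries and leaving out each library.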

Additional observations from a re-analysis of the deposited data

Results flagged for a closer look

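Of 104 groups of 4 libraries examined, 9 held a library far from the other 3, where chance gives about 1 in 20 for normally spread values. In 5 of the 9 the other 3 libraries were listed at 0, so that any value above 0 stands apart and this rate does not apply. Ccl21a was at 10.5 FPKM in mesenchymal H19DMD mutant 1 and at 0.666 to 0.708 FPKM in the other 3, and in the same library Ccl3 was at 0.800 FPKM and Ccr2 at 0.206 FPKM where the others were listed at 0. Ccl11 was at 3.56 FPKM in non-mesenchymal H19DMD mutant 4, against 0 to 0.214 FPKM. In the Igf2 model Ccl24 was low in non-mesenchymal control 1, at 2.40 FPKM against 9.34 to 10.8 FPKM, and Cxcr5 was low in control 2, at 1.87 FPKM against 3.57 to 3.74 FPKM. Ccl5 was at 2.07 FPKM in mesenchymal H19DMD mutant 2, Ccr7 at 0.274 FPKM in mesenchymal H19DMD mutant 4 and Cxcl11 at 0.315 FPKM in non-mesenchymal H19DMD mutant 3, each with the other 3 libraries listed at 0.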

How the results depend on the processing

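The number of members called between fractions was 24 in controls and 21 in mutants. With a filter of a mean of at least 5 FPKM, which tests fewer members, it was 12 and 13. Leaving out each library in turn gave 21 to 24 in controls and 19 to 24 in mutants. Rescaling to the sum over long genes gave 26 (10 higher, 16 lower) and 20, and moved the median log2 difference of all genes from 0.08 to 0.34 in controls and from -0.03 to 0.12 in mutants. Between H19DMD mutants and controls the count stayed 0 in mesenchymal cells (0 to 0 with a library left out) and ran from 0 to 1 in non-mesenchymal cells, where Ccr7 was called without mutant 1. In the Igf2 model and in the interaction it was 0 under every alternative run. With the replicate number as a block the counts were 22 in controls and 18 in mutants, and 0 in the mutant comparisons. The calls missed with the block were those of Cxcl12 and Ccl21a in controls (adjusted p = 0.0501 and 0.127) and of Ccl2, Cxcl10 and Cxcl16 in mutants (0.058, 0.0792 and 0.0824). Between fractions the deviations of all 7 same-numbered pairs were positively but weakly correlated (0.00738 to 0.0674), and not every library correlated best with its own number. Since none reached 0.1 and the labels name no shared mice, the numbers were not read as pairs. The limit of 0.1 was a choice, and whether same-numbered libraries share mice is not known. The main fraction and interaction fits took all libraries as independent. Of 73 fold changes examined, 70 had an unadjusted p under 0.05 and kept their sign in every alternative run; over these a call was lost 37 times and gained 17 times. The other 3, given by their intervals between mesenchymal mutants and controls, were small and changed sign: Cxcl1 (-0.06) was 0.017 with median-ratio scaling and ran from -0.26 to 0.11 with a library left out, Ccl11 (0.24) ran from -0.00016 to 0.67 and Cxcl12 (0.11) from -0.028 to 0.30; the cause was not tested. Another 91 named fold changes are not given; 37 of them changed sign in at least 1 alternative, the largest at 0.51 on the log2 scale, and 6 were called when the 14 libraries were pooled. The number of libraries, 3 or 4 a group, and the unknown depth limit the precision.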
